A study of Mus musculus with 10 samples.

Results

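The 10 genes listed for the apolipoproteins and the assembly of very low density lipoprotein (VLDL) were examined in livers of mice that overexpressed the histone demethylase Phf2. A gene was measured where a feature of the array carried its symbol alone, which held for 9 of the 10 listed genes among 19938 genes measured in all: Mttp, Apob, Tm6sf2, Apoa1, Apoc3, Apoa4, Apoa5, Apoe and Apom. Each of the 9 had 1 such feature, so that no choice between features was needed. The only feature of Apoc2 is shared with the read-through gene Gm44805, and it was not analysed here. Phf2 livers came from 5 male C57BL/6J mice that had received an adenovirus encoding Phf2 by tail vein at 8 weeks of age, and the controls were 5 mice of the same strain, sex and age that had received an adenovirus encoding GFP, a fluorescent protein. All mice were fed, were studied 3 weeks after the injection and carried an adenovirus, and mice that did not overexpress the protein had been removed from the cohort. Each liver was read on 1 Affymetrix Gene ST array, which gives a log2 RMA value for each gene, a background-corrected and normalized signal. Neither the labels nor the methods name the promoter that drives Phf2 in this virus or the species of its insert.

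Hepatocytes secrete triglyceride in VLDL, a particle built around 1 molecule of ApoB, onto which the microsomal triglyceride transfer protein loads lipid in the endoplasmic reticulum. Smaller apolipoproteins on the surface of the particle then set how it is lipolysed and cleared, and ApoA-I is the main protein of high density lipoprotein (HDL). The study asked how Phf2 affects the lipid economy of the liver, VLDL secretion included. It reported that livers of Phf2 mice secreted triglyceride more slowly, and that this went with less expression of the transfer protein and of ApoB.

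Array medians lay between 5.06 and 5.18, and no 2 arrays correlated at less than 0.973. Markers of other tissues were high on some arrays. The mean of 8 pancreatic acinar markers was 5.88, 10.53, 9.93, 8.62 and 6.12 in Phf2 replicates 1 to 5, against 12.20, 8.23, 6.91, 6.20 and 7.64 in GFP replicates 1 to 5, and the mean of 8 intestinal markers was 6.12 in GFP replicate 4, against 5.03 to 5.15 in the other GFP arrays. Of 7 hepatocyte markers, 4 were lower in Phf2 mice and none was higher, at an adjusted p under 0.05 from limma. This is 57.1% of the list, where 9.67% of all genes passed in either direction and 4.24% were lower. Tat fell by 0.83, Hpd by 0.65, Cps1 by 0.57 and Fgb by 0.24 on the log2 scale. The list median was -0.24, while Alb lay at 12.59 to 12.80 in Phf2 mice and at 12.59 to 12.85 in GFP mice. The feature of Phf2 itself lay at 6.27 to 6.58 in Phf2 mice and at 6.32 to 6.54 in GFP mice (adjusted p = 0.751 from limma). No source used here says whether this mouse feature reads the injected insert, so that it is no check of the labels.

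The members moved apart. Apoa4 and Mttp were higher in Phf2 mice, Apom, Apoa5 and Apoa1 were lower, and Apob, Apoc3, Apoe and Tm6sf2 did not pass the test, which was limma's with p-values adjusted over all 19938 genes and a threshold of 0.05. This is 5 of 9 members called, where 9.67% of all genes were. In each direction 2 of 9 members were higher, beside 5.43% of all genes, and 3 of 9 were lower, beside 4.24%. In 6 of 9 members the arrays of the groups did not overlap, against 9.08% of all genes. The median log2 fold change was -0.04 over the members and -0.01 over all genes. Of all genes called, 1083 were higher and 846 lower, a split of 816 and 1280 when each array was centred on its median, and no member changed sign under that scaling. When a change of 1.5-fold with an unadjusted p of 0.05 was required instead, 2 of 9 members were called (3.54% of all genes), Apoa4 and Apom, with Apoa5 just under the fold limit.

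**Figure D1:**
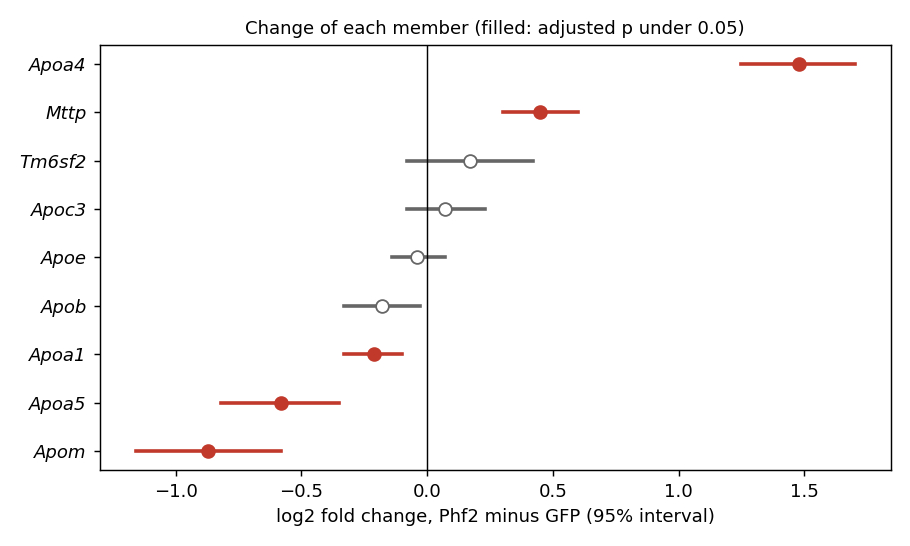
Log2 fold change of each member (horizontal axis, Phf2 minus GFP) with its 95% interval from limma, 5 arrays per group. Red filled points mark genes called at 0.05 after adjustment, and open points the other genes, from Apoa4 at 1.48 to Apom at -0.87.

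Mttp encodes the large subunit of the microsomal triglyceride transfer protein, which loads lipid onto ApoB as VLDL is built. Its feature read 10.14, 10.04, 10.17, 10.10 and 10.13 in Phf2 replicates 1 to 5, against 9.64, 9.86, 9.67, 9.65 and 9.50 in GFP replicates 1 to 5. All Phf2 arrays lay above all GFP arrays, with a gap of 0.18 between the groups and less spread among the Phf2 mice (SD 0.05) than among the GFP mice (SD 0.13). The level in Phf2 mice was 137% of that in GFP mice (log2 fold change 0.45, 95% interval 0.30 to 0.60, adjusted p = 0.00138). This direction is opposite to the reduced expression that the study reported, and the reason was not tested. The array reads RNA, whereas the study's main text does not say whether its measure was RNA or protein. Its methods list an antibody to this protein, so that the 2 measures may not be alike. Without the 5 arrays whose pancreatic mean lay above 8, which left 2 Phf2 and 3 GFP arrays, the value was 0.528 and the adjusted p 0.0538.

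Apob is the structural protein of VLDL. It read 11.73, 11.66, 11.50, 11.52 and 11.66 in Phf2 mice, against 11.74, 11.75, 11.96, 11.78 and 11.76 in GFP mice. The groups did not overlap, but the highest Phf2 array and the lowest GFP array were only 0.01 apart. The log2 fold change of -0.18 (95% interval -0.33 to -0.03) did not pass the test (adjusted p = 0.129), while the two-sided exact permutation test gave p = 0.00794, the smallest that 5 arrays against 5 allow. Tm6sf2, a membrane protein of the endoplasmic reticulum that helps to add lipid to VLDL, read 7.19, 7.19, 7.39, 7.43 and 7.72 in Phf2 mice, against 7.12, 7.14, 7.43, 7.01 and 7.38 in GFP mice. These ranges overlapped, and the log2 fold change was 0.17 (95% interval -0.08 to 0.42, adjusted p = 0.438). The difference between Mttp and Apob within an array averaged -1.50 ± 0.12 in Phf2 mice and -2.14 ± 0.16 in GFP mice (SD, n = 5 each). This difference shifted by 0.64, and it is a description, since the pair was chosen with the direction of both genes known.

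**Figure D2:**
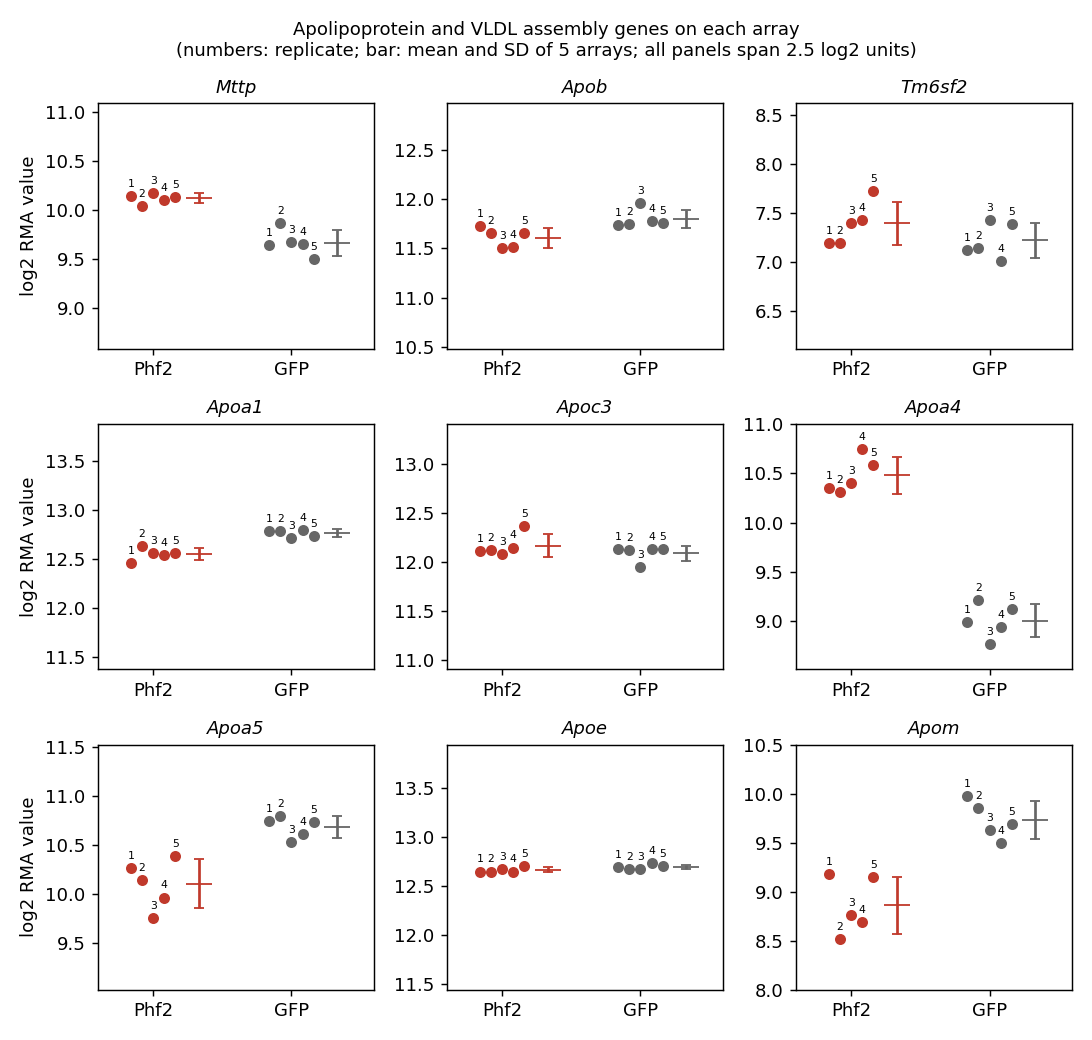
Log2 RMA value (vertical axis) of each member on each array, with Phf2 arrays in red, GFP arrays in grey, the replicate number at each point and the mean with its SD beside them. All panels span the same number of log2 units, and Apoa4 shows the widest gap between the groups, 1.11.

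Apoa1, Apoc3, Apoa4 and Apoa5 follow each other in this order on the chromosome in the RefSeq annotation, with no other annotated gene between them. They did not move together. Apoa4 encodes ApoA-IV, an apolipoprotein of chylomicrons and HDL that is also made in fatty mouse liver. It read 10.35, 10.31, 10.40, 10.75 and 10.59 in Phf2 mice, against 8.99, 9.21, 8.76, 8.93 and 9.12 in GFP mice. The lowest Phf2 array lay 1.11 above the highest GFP array. The rise was 2.78-fold (log2 fold change 1.48, 95% interval 1.25 to 1.70, adjusted p = 4.64e-06), and it was 1.53 (adjusted p = 0.00125) without the arrays with high pancreatic markers.

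Apoa5, which encodes a scarce plasma protein that promotes the lipolysis of VLDL triglyceride, went the other way. It read 10.26, 10.14, 9.75, 9.96 and 10.38 in Phf2 mice, against 10.74, 10.79, 10.53, 10.61 and 10.73 in GFP mice. No Phf2 array reached the GFP range, and replicates 3 and 4 were lowest. Apoa5 fell by 0.58 on the log2 scale (95% interval -0.82 to -0.35, adjusted p = 0.00504), which left 66.8% of the GFP level. Without the arrays with high pancreatic markers the value was -0.303 and the call was lost (adjusted p = 0.339).

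Apoa1, the gene of ApoA-I, read 12.46, 12.64, 12.56, 12.54 and 12.56 in Phf2 mice, against 12.79, 12.79, 12.72, 12.80 and 12.74 in GFP mice. The groups were 0.08 apart and the spread within each was small (SD 0.06 in Phf2 mice and 0.04 in GFP mice). The log2 fold change was -0.21 (95% interval -0.33 to -0.10, adjusted p = 0.0263), or 86.2% of the GFP level. This call depended on single arrays, since the adjusted p was 0.064 without GFP replicate 1, 0.0519 without GFP replicate 2, 0.0569 without GFP replicate 4, and 0.0624, 0.0586 and 0.0656 without Phf2 replicates 1, 3 and 4. It was also lost without the arrays with high pancreatic markers (-0.24, adjusted p = 0.433). The feature lay at percentile 99.96 of all genes by mean level, near the top of the range of the array.

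Apoc3 encodes an inhibitor of lipoprotein lipase and of remnant clearance. It read 12.11, 12.12, 12.08, 12.15 and 12.37 in Phf2 mice, against 12.13, 12.12, 11.95, 12.13 and 12.13 in GFP mice. Apart from Phf2 replicate 5 at the top and GFP replicate 3 at the bottom, the groups lay on each other. Its log2 fold change was 0.07 (95% interval -0.08 to 0.23, adjusted p = 0.604).

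Differences between neighbours in the cluster were taken within arrays, as a description with no test, since these pairs too were chosen with the direction of each gene known. Apoa4 minus Apoa1 averaged -2.07 ± 0.20 in Phf2 mice and -3.77 ± 0.16 in GFP mice (SD, n = 5 each), a shift of 1.69. For Apoa4 minus Apoc3 the shift was 1.40, with -1.69 ± 0.17 in Phf2 mice and -3.09 ± 0.12 in GFP mice. Apoa4 minus Apoa5 was positive on every Phf2 array (0.09 to 0.79) and negative on every GFP array (-1.77 to -1.58), a shift of 2.06.

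The 250 bases before the annotated start of the 5 called members are shown because Apoa4 and Apoa5, which lie side by side, went in opposite directions, with those of the other called members for comparison. They are RefSeq sequences of build GRCm38.p6, which held windows for 7 of the 9 members, and capitals mark matches to an E-box (CACGTG), to a TATA box (TATAAA) or to DR1, the paired half-sites bound by HNF4 and other nuclear receptors (a direct repeat of AGGTCA with 1 free base between the copies, at most 3 mismatches), on either strand.
Apoa4 (chr9:46240594-46240843, plus strand): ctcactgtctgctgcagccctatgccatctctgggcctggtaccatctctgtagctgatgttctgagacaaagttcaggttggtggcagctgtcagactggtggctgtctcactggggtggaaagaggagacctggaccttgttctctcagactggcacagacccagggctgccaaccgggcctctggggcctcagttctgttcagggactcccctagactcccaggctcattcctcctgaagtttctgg
Mttp (chr3:138143419-138143668, minus strand): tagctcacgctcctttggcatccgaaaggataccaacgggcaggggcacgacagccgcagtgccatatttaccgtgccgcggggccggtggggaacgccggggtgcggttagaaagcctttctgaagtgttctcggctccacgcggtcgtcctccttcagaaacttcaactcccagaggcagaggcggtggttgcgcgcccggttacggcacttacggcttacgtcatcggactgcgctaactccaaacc
Apoa1 (chr9:46228380-46228629, plus strand): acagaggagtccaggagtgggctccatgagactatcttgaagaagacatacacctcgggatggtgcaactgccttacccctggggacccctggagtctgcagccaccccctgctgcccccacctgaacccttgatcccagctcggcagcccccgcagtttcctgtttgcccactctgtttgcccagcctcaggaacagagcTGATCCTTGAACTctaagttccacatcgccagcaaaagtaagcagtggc
Apoa5 (chr9:46268358-46268607, plus strand): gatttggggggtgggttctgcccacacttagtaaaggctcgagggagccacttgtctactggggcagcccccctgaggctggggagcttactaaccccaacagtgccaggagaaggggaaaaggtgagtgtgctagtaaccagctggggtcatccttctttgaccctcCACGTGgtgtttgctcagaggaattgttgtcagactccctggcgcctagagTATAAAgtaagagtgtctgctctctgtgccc
Apom (chr17:35131802-35132051, minus strand): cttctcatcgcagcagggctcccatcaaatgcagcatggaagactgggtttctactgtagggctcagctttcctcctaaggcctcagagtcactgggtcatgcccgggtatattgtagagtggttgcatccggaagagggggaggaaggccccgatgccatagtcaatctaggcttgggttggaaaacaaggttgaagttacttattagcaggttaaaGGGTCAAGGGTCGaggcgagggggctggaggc
The windows of Apoa4 and Mttp, the members that rose, held none of these motifs, and the search also found neither the core of the antioxidant response element (TGACNNNGC) nor those of FOXA factors (TGTTTNC) and HNF6 (ATTGAT) there. Apoa5 held an E-box whose first base lay at position -82 from the start, a TATA box at -31 and a FOXA core at -75. The annotation holds 2 windows for Apoa5, of which only the 1 shown was searched. Apoa1 held 2 FOXA cores and a DR1 match at -49, and Apom held a FOXA core at -68 and a DR1 match at -32, each DR1 with 3 mismatches. Such matches were not limited to members that fell. Apob, which was not called, held a TATA box at -60 and a FOXA core at -121. Apoe, not called either, held a DR1 match at -28 with 3 mismatches, in the only 1 of its 3 windows that was searched. Among all 32851 windows in the table, 6.02% held the E-box, 12.4% the TATA box, 21.3% such a DR1 match, 17.8% the FOXA core, 10.2% the antioxidant core and 6.72% the HNF6 core. These matches describe letters and were not tested for binding.

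Apom encodes the HDL apolipoprotein that carries sphingosine-1-phosphate, and among the members it had the largest fall. It read 9.18, 8.52, 8.76, 8.69 and 9.15 in Phf2 mice, against 9.98, 9.85, 9.63, 9.50 and 9.69 in GFP mice. The groups were 0.32 apart, and Phf2 replicates 2, 3 and 4 lay lowest. Apom fell by 0.87 on the log2 scale (95% interval -1.16 to -0.58, adjusted p = 0.00149), which left 54.6% of the GFP level. Without the arrays with high pancreatic markers it was -0.444 (adjusted p = 0.115). With the pancreatic mean of each array as a covariate it was -0.873 (adjusted p = 0.00196). The log2 fold changes of the pancreatic markers were only -0.15 to 0.16, so that this covariate could hardly move the value.

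Apoe, the ligand through which remnants bind hepatic receptors, is made by hepatocytes and by macrophages. It read 12.65, 12.65, 12.68, 12.65 and 12.71 in Phf2 mice, against 12.70, 12.68, 12.68, 12.74 and 12.71 in GFP mice, which was the narrowest spread among the members. The log2 fold change was -0.04 (95% interval -0.14 to 0.07, adjusted p = 0.743), and a further quantile normalization turned its sign (0.0429, adjusted p = 0.663). Of 8 macrophage markers, 2 were higher and 2 lower (50% called, beside 9.67% of all genes). Mpeg1 rose by 0.93 and Lyz2 by 0.64, whereas Clec4f fell by 0.54 and Marco by 0.37. The mean of the 8, which joins genes of opposite direction, lay at 7.94 to 8.26 in Phf2 mice and at 7.68 to 8.42 in GFP mice. In whole liver, fewer cells of a type and less RNA per cell cannot be told apart.

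The falls of Apoa5 and Apom were not even across the Phf2 mice. Both were nearest to the GFP level in Phf2 replicates 1 and 5, whereas the rises of Apoa4 and Mttp showed no such division. The same arrays differed in other markers. The mean of 7 hepatocyte markers was 12.22, 11.95, 11.80, 11.84 and 12.27 in Phf2 replicates 1 to 5, against 12.31 to 12.44 in GFP mice, and the pancreatic mean was highest in Phf2 replicates 2, 3 and 4. GFP replicate 1, with the highest pancreatic mean of all arrays, had the highest Apom value of all arrays, 9.98. The part of either marker list in the falls was not tested.

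**Figure D3:**
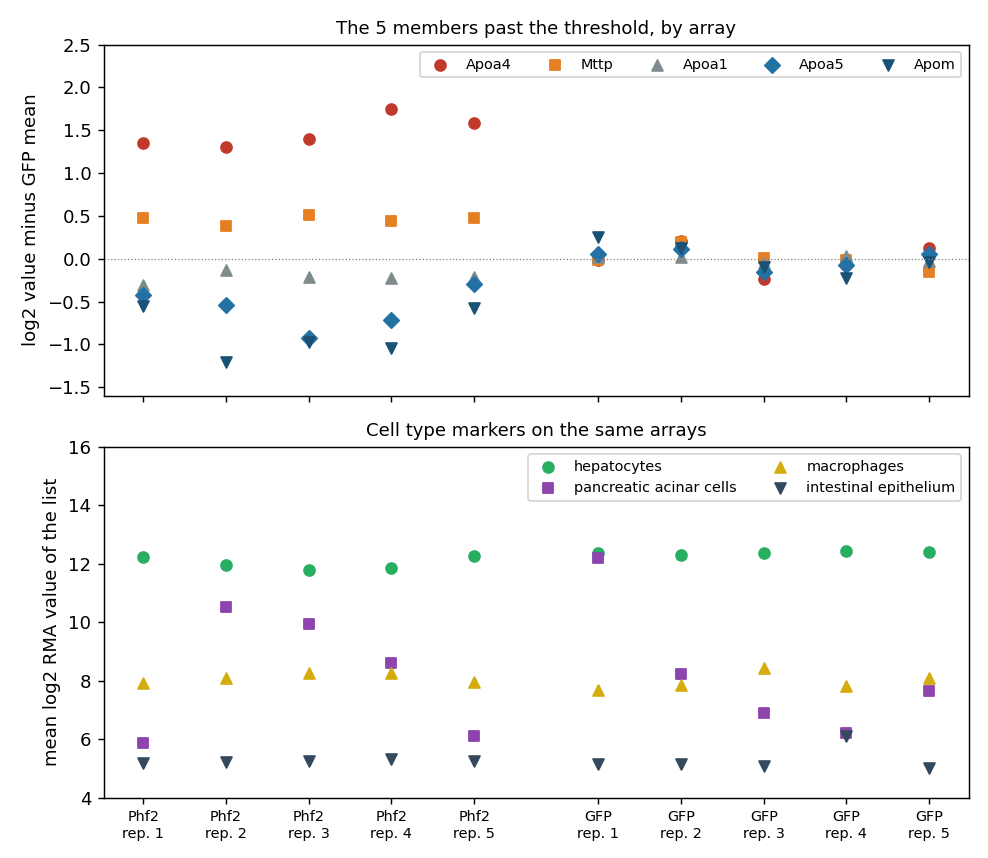
The upper panel shows the log2 value of the 5 called members on each array minus their GFP mean, and the lower panel the mean log2 RMA value of 4 lists of cell type markers on the same arrays. Apom lies lowest in Phf2 replicates 2, 3 and 4, where the pancreatic means are 10.53, 9.93 and 8.62.

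Of 14 other apolipoproteins tested, none was higher and 3 were lower, with a median log2 fold change of -0.05. This is 21.4% called, beside 9.67% of all genes. Saa4, a constitutive serum amyloid A of HDL, lay at 10.61 ± 0.14 in Phf2 mice and 11.20 ± 0.06 in GFP mice (SD, n = 5 each), a log2 fold change of -0.60 (adjusted p = 0.000307). Apon, a mouse apolipoprotein related to Apof, fell by 0.42 on the log2 scale (adjusted p = 0.0167), a call that the analysis of variance of the methods did not give (adjusted p = 0.0559). Apoc4 fell by 0.36 (adjusted p = 0.00892), and since its gene model overlaps the read-through gene Gm44805, what its feature reads is uncertain. Apoa2, the second protein of HDL, had a log2 fold change of 0.01 (95% interval -0.14 to 0.16, adjusted p = 0.946).

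Of 21 partners of ApoB in editing, folding and export, 2 were higher and 1 was lower, with a median of -0.08. The share called, 14.3%, was near the 9.67% of all genes. Sec22b, a fusion protein of vesicles between the endoplasmic reticulum and the Golgi, had a log2 fold change of 0.26 (adjusted p = 0.00882), and Derl1, which takes part in the removal of misfolded ApoB, one of 0.48 (adjusted p = 0.00634). Vamp7, a vesicle protein needed for chylomicron transport vesicles in rat intestine, fell by 0.51 (adjusted p = 0.00504). P4hb, which encodes the smaller subunit of the triglyceride transfer protein, had a value of -0.09 (95% interval -0.22 to 0.05, adjusted p = 0.47).

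Of 9 genes that take up lipoproteins, 2 were higher and 3 lower (55.6% called, beside 9.67% of all genes), with a median of -0.02. Vldlr, the VLDL receptor, was at 6.14, 6.25, 7.15, 6.70 and 6.19 in Phf2 mice, against 5.73, 5.45, 5.41, 5.49 and 5.30 in GFP mice. Every Phf2 array lay above every GFP array, with Phf2 replicate 3 furthest, and the rise was 2.01-fold (log2 fold change 1.01, adjusted p = 0.00291). Scarb1, the HDL receptor, fell by 0.45 (adjusted p = 0.0033), and so did Sdc1, a heparan sulfate proteoglycan that binds remnants (adjusted p = 0.00508). Lrp1, a remnant receptor, fell by 0.32 (adjusted p = 0.0327), and the sorting receptor Sorl1 rose by 0.39 (adjusted p = 0.0355). When single arrays were left out, the call was lost in 5 of 10 cases for Lrp1 and in 7 of 10 for Sorl1.

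Of 12 lipases and remodelling proteins, 2 were higher and 3 lower (41.7% called, beside 9.67% of all genes), with a median of 0.06. Both lipases that rose act at the vessel wall. Lpl, lipoprotein lipase, read 8.20, 8.52, 8.71, 8.51 and 7.68 in Phf2 mice, against 7.19, 7.12, 7.46, 7.47 and 7.87 in GFP mice. Phf2 replicate 5 lay below GFP replicate 5, so that the groups overlapped, and the log2 fold change was 0.90 (adjusted p = 0.00873). It was 0.343 (adjusted p = 0.596) without the arrays with high pancreatic markers, and the analysis of variance gave an adjusted p of 0.0533. Lipg, endothelial lipase, rose by 0.61 (adjusted p = 0.00101). The secreted HDL proteins Lcat, which esterifies cholesterol, Gpld1, a phospholipase D, and Pon1, a paraoxonase, fell by 0.41 (adjusted p = 0.00371), by 0.68 (adjusted p = 0.000396) and by 0.30 (adjusted p = 0.031). The call of Pon1 was lost in 6 of 10 cases with 1 array left out.

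**Figure D4:**
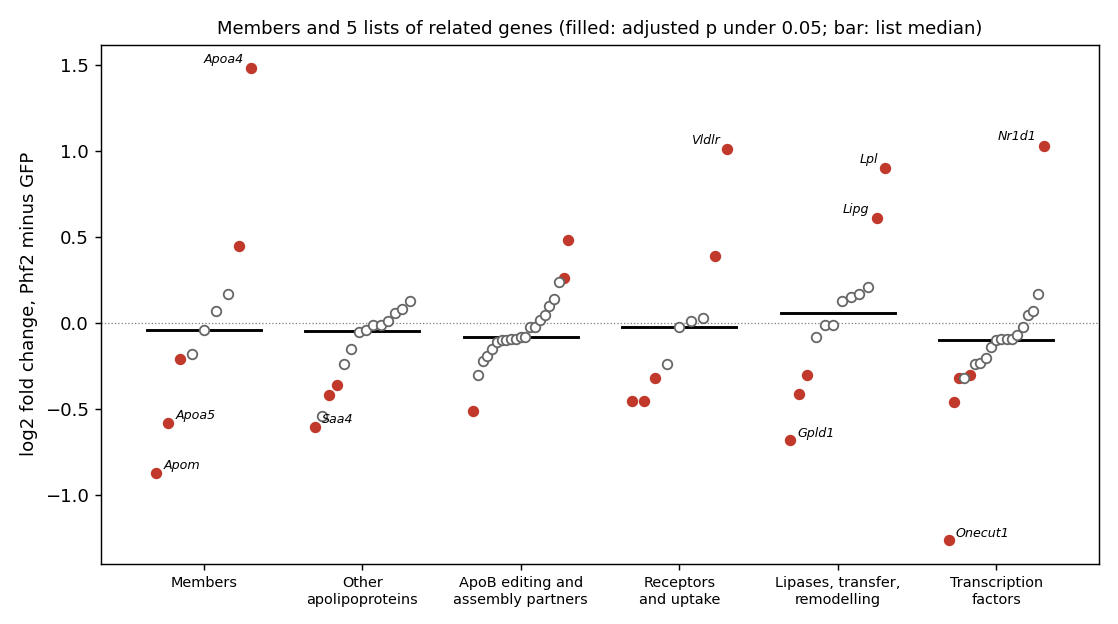
Log2 fold change (vertical axis, Phf2 minus GFP) of the members and of each gene in 5 lists of related genes. Genes called at 0.05 after adjustment are filled in red, the others are open, bars mark list medians, and these medians lie between -0.10 and 0.06.

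Among 19 transcription factors known at apolipoprotein genes, 1 was higher and 4 were lower (26.3% called, beside 9.67% of all genes), with a median of -0.10. Nr1d1, the circadian repressor REV-ERB alpha, rose by 1.03 (adjusted p = 0.000164). Onecut1, which encodes HNF6, was at 6.81, 6.78, 6.21, 6.79 and 7.61 in Phf2 mice, against 8.47, 8.19, 7.22, 8.72 and 7.89 in GFP mice. Phf2 replicate 5 lay within the GFP range, and the log2 fold change was -1.26 (adjusted p = 0.0134). It was -0.735 (adjusted p = 0.598) without the arrays with high pancreatic markers, and the analysis of variance gave an adjusted p of 0.0723. Foxa1 fell by 0.46 (adjusted p = 0.0108), and Creb3l3, which encodes CREBH, an activator of Apoa4 and Apoa5 in mouse liver, fell by 0.30 (adjusted p = 0.0165). The fourth, Cebpa, was named after its value was seen (log2 fold change -0.32, adjusted p = 0.0497), and its call was lost in 8 of 10 cases with 1 array left out. Hnf4a, the nuclear receptor bound at many apolipoprotein promoters, had a value of -0.09 (95% interval -0.27 to 0.09, adjusted p = 0.597). Of the 21 genes called in these 5 lists, 17 kept their call whichever single array was left out. Without the arrays with high pancreatic markers, which left 5 arrays in all, only Vldlr (0.764) and Nr1d1 (1.22) were still called. Among those that lost their call, the log2 fold change was of like size for Scarb1 (-0.479), Vamp7 (-0.529), Foxa1 (-0.423), Sorl1 (0.485), Sec22b (0.298) and Lipg (0.536). It was smaller by over 1.5 times for Lpl (0.343), Pon1 (-0.129), Onecut1 (-0.735), Apon (-0.232), Cebpa (-0.183), Sdc1 (-0.276), Apoc4 (-0.226) and Lcat (-0.268). The others that lost their call shrank by less than 1.5 times: Gpld1 (-0.465), Saa4 (-0.453), Derl1 (0.393), Lrp1 (-0.278) and Creb3l3 (-0.235).

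For each called member the 3 genes with the most similar values over the 10 arrays were found, predicted genes aside. These correlations contain the difference between the groups and are a description. Apoa4 was most like Gstp3, Tceal8 and Cyp2a22 (Pearson's r 0.991, 0.989 and 0.988), which rose by 2.24, 0.80 and 3.33. Mttp was most like Lrp2bp, Pdha1, a subunit of pyruvate dehydrogenase, and Acot5, a peroxisomal thioesterase (0.965, 0.961 and 0.957). Apoa5 was most like Urad, Ddt and Aadat (0.987, 0.983 and 0.978), of which Urad degrades uric acid products and Aadat is an aminotransferase of lysine breakdown, and these fell by 1.03, 0.30 and 1.04. Apom was most like the sulfotransferase Sult5a1, the dehydrogenase Bdh2 and Cyp27a1, a sterol hydroxylase of bile acid synthesis (0.985, 0.981 and 0.98), which fell by 1.36, 1.22 and 0.66. Apoa1 was most like Nme2, Olfr996 and Socs2 (0.958, 0.955 and 0.936), of which Socs2, a target and inhibitor of growth hormone signalling, fell by 1.63.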

How the data were processed

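Liver RNA of 5 Phf2 and 5 GFP mice was read on 1 array each, and groups were taken from the sample titles. The deposited values are log2 signals of 35556 features, which the authors had made by RMA. Both RMA and Partek stand in the submitters' processing notes, without versions. RMA equalizes the distributions of the arrays, which can shrink the changes of very bright features. The methods name a human array, whereas the feature numbers match a mouse Gene ST annotation.

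Features were named through the platform annotation. Of these, 21789 carried 1 symbol, of which 21698 were matched by gene number to RefSeq (GRCm38.p6), while 1621 features with several symbols and 12146 without any stayed out. A gene was represented by its feature with the highest mean, which gave 19938 genes. The comparison of Phf2 with GFP used limma (version 3.58.1, R 4.3.3) with group as its only term, which stood in for the analysis of variance of the methods, with Benjamini-Hochberg adjustment over all genes. Single genes were also compared with two-sided exact permutation tests (SciPy 1.17.1). Intervals of 95% are from limma. The number of arrays limits the precision. The pipeline was tested on simulated data.

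The members and lists were chosen with earlier results of these data known. Text names all members, up to 3 called genes of each list in each direction, and the 3 genes most correlated with each called member. Apoa2, P4hb, Hnf4a and Cebpa, outside this rule, were chosen after their values were seen. Alternatives were the analysis of variance of the methods, a robust prior that follows intensity, weights for arrays, removal of the dimmest 25% of genes, 2 scalings, all features, features averaged by gene, a block for the replicate number, a pancreatic covariate, the study's thresholds and leaving out each array. Leaving out the 5 arrays with high pancreatic markers was added after the data were seen. Of 88 genes in the 5 pathway lists, 75 were tested and the others are not analysed here.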

Additional observations from a re-analysis of the deposited data

Results flagged for a closer look

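Among 33 genes and differences between members, and so 66 groups of 5 arrays, 3 groups held 1 array far from the others, by a rule that chance meets in about 1 of 20 groups. Apob lay at 11.96 in GFP replicate 3, with the next GFP array at 11.78. Apoc3 lay at 11.95 in the same GFP replicate 3, below the next GFP array at 12.12, and at 12.37 in Phf2 replicate 5, above the next Phf2 array at 12.15.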

How the results depend on the processing

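For the 9 members, 176 of 189 combinations of gene and alternative kept the direction and the side of the threshold. This count includes alternatives that could not change a member's fold change, only its p-value. These were the analysis of variance, the robust prior, the removal of dim genes, all features, averaged features and the replicate block. The pancreatic covariate, alike on average in both groups, could hardly change it. Of the 13 exceptions 9 were of Apoa1, 1 each of Apoe, Mttp, Apoa5 and Apom. Apoa1 was at -0.155 (adjusted p = 0.0728) after a further quantile normalization and at -0.215 (adjusted p = 0.0912) with a block for the replicate number, and it ran from -0.237 to -0.193 (adjusted p 0.0311 to 0.0656) when single arrays were left out. Apoe changed sign after the quantile normalization (0.0429). Without the 5 arrays with high pancreatic markers, chosen after seeing the data, 2 Phf2 and 3 GFP arrays remained, 284 genes were called in place of 1929, and 1 member (Apoa4) in place of 5. Mttp was then at 0.528, Apoa1 at -0.24, Apoa5 at -0.303 and Apom at -0.444. The lists then had 0 (other apolipoproteins), 0 (ApoB partners), 1 (receptors), 0 (lipases and remodelling) and 1 (transcription factors) genes called, with fewer samples by construction. The study's thresholds called 706 genes and 2 members. Receptors had 3 genes called in place of 5 by the analysis of variance, over all features and with the replicate block, and 3 to 5 with single arrays left out (3 without GFP replicates 4 or 5 or Phf2 replicate 4). Transcription factors had 3 called in place of 5 by the analysis of variance, ApoB partners 5 in place of 3 under median centring, and other apolipoproteins 3 to 5 with single arrays left out (5 without Phf2 replicate 5). With 1 of the 10 arrays left out, Cebpa lost its call in 8 cases, Sorl1 in 7, Pon1 in 6 and Lrp1 in 5. The analysis of variance lost these 4 and Apon, Lpl and Onecut1. The causes of these shifts were not tested.

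Same-numbered arrays of the groups did not deviate together (correlations -0.291 to -0.0421, none matching its own number best), so that the samples share only a number. A block for the replicate number left 1514 genes called. As pairs by number, the differences between members have the same values by construction (1.69, 1.40, 2.06 and 0.637), and 5 pairs cannot give an exact p below 0.0625.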
